A study of Sus scrofa with 10 samples.

Results

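Condensin, cohesin and topoisomerase II genes were taken from the right ventricular expression table of a pig study by gene symbol. All 10 genes sought, 6 for condensin, 2 for cohesin and 2 for topoisomerase II, were found once each among the 12378 genes of the table that have a symbol (3260 more have none), and no filter on low values removed any of them. CTEPH, chronic thromboembolic pulmonary hypertension, is a state in which clotted pulmonary arteries put a pressure load on the right ventricle. Right ventricular biopsies came from 5 CTEPH and 5 Sham pigs, with 1 library per pig. CTEPH libraries are s1, s3, s4, s5 and s9, and Sham libraries are s2, s6, s7, s8 and s10. The sources used here give no breed, sex, age, batch, time after the procedure or way in which CTEPH was induced. The biopsies were whole tissue, so fewer cells of a type and less RNA per cell cannot be told apart.

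Condensin and cohesin are ring-shaped complexes built on pairs of SMC (structural maintenance of chromosomes) ATPases. Condensin, with SMC2 and SMC4, folds chromosomes into compact mitotic bodies, while cohesin, with SMC1A and SMC3, holds sister chromatids together and also shapes chromatin loops in cells that do not divide. Topoisomerase II passes one DNA double strand through another and so untangles chromosomes. Its TOP2A form is made mainly by dividing cells, and its TOP2B form is present in resting cells too, cardiomyocytes included. Most adult cardiomyocytes have left the cell cycle, so mitotic transcripts are scarce in a resting ventricle.

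The value of a gene in a library is the deposited log2 value, which follows log2(2 × count + 1) after quantile normalization, a step that gives every library nearly the same distribution of values. Up to a log2 value of 11.09 the whole counts behind the values could be read back, which covers 79.0% of the table. From these counts the relative depth of the libraries (median ratio to the mean library) averaged 1.05 ± 0.299 for CTEPH against 1.01 ± 0.300 for Sham (SD, n = 5 each) and was lowest in s9 (0.724) and highest in s4 (1.53), both of them CTEPH. Differences are CTEPH minus Sham, tested with limma, and a gene is called where its Benjamini-Hochberg adjusted p over all genes of the table is under 0.05. Of all genes, 4.62% were called, 2.83% higher and 1.79% lower in CTEPH, and the median log2 difference was -0.03. The values rank samples within a gene, and they are not scaled to transcript length, so levels are not compared between genes.

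The CTEPH ventricles carried more transcript of TOP2A and of the condensin subunits NCAPG and SMC4, and no detectable change of the cohesin SMC subunits or of TOP2B. TOP2A rose 12.1-fold, NCAPG 7.02-fold and SMC4 2.2-fold. These were 3 of the 10 genes, all higher, against the background of 4.62% called. The 4 other condensin genes had differences of 0.35 to 0.995 on the log2 scale and were not called, though all 6 condensin genes had an unadjusted p under 0.05, as 20.3% of all genes did. The groups did not overlap for TOP2A, NCAPG and SMC4, a pattern found for 6.57% of all genes and, with CTEPH above Sham, for 3.70%.

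**Figure D1:**
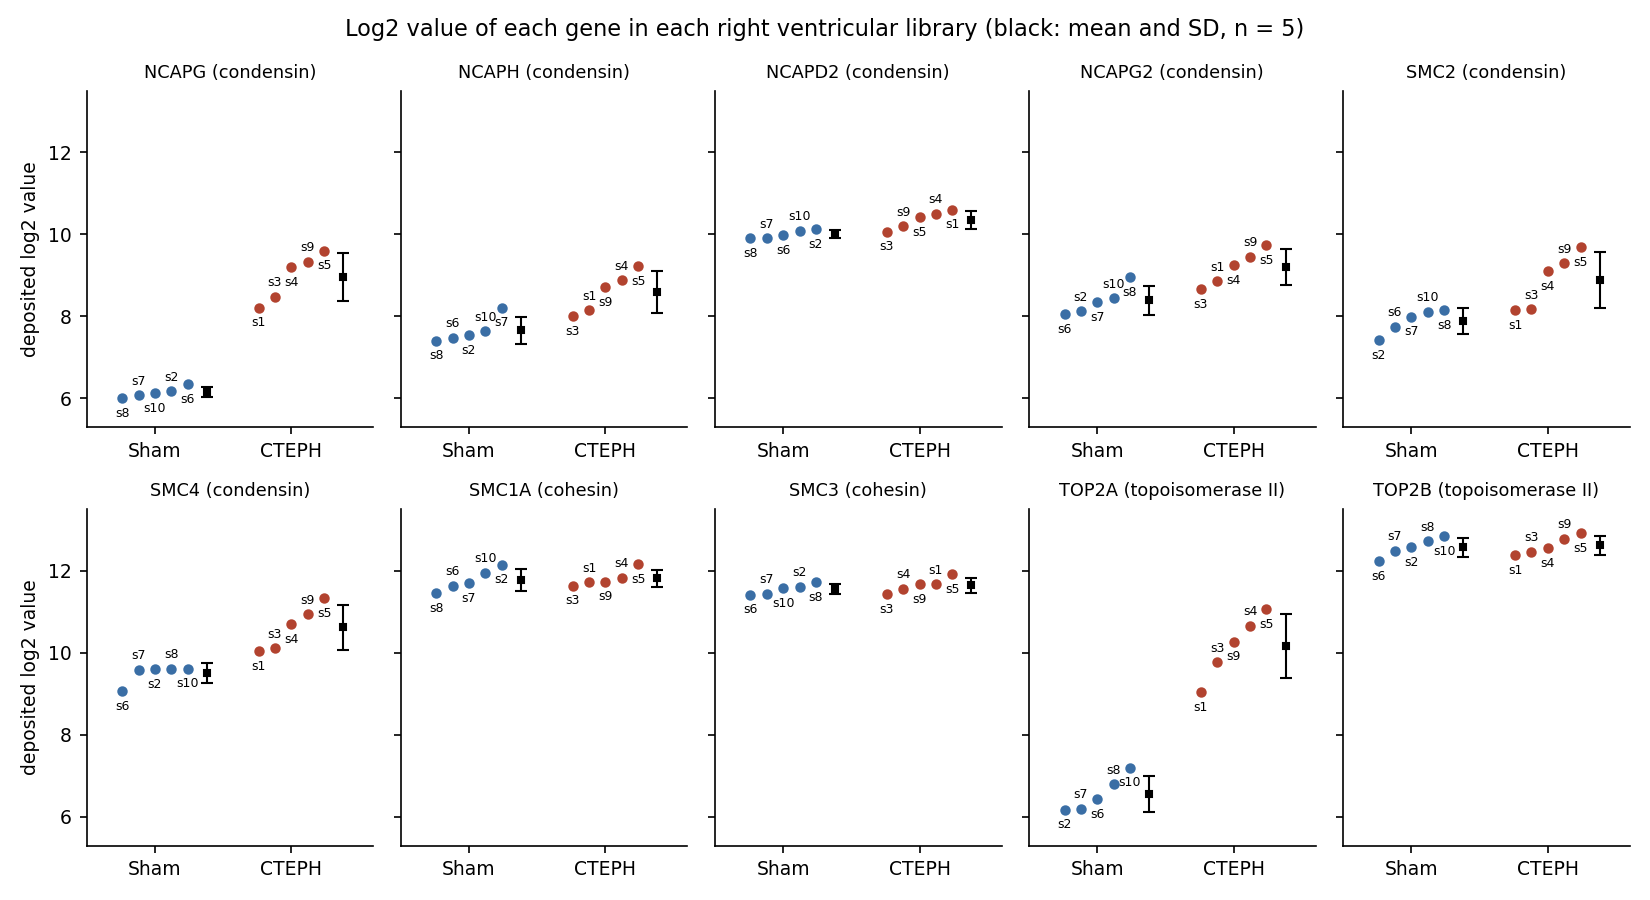
Deposited log2 value (vertical axis) of the 10 genes in each of the 5 Sham (blue) and 5 CTEPH (red) libraries, ordered by value within a group for display, with the mean and SD in black. TOP2A, NCAPG and SMC4 show no overlap between groups, while SMC1A, SMC3 and TOP2B lie at nearly the same level in both.

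TOP2A (ENSSSCG00000017473; chromosome 12, 22001300 to 22028452 of Sscrofa11.1) encodes the topoisomerase II of dividing cells and had the largest difference in means of the 10 genes. Its log2 values were 9.05, 9.77, 10.66, 11.06 and 10.27 in CTEPH libraries s1, s3, s4, s5 and s9, and 6.18, 6.44, 6.20, 6.80 and 7.20 in Sham libraries s2, s6, s7, s8 and s10. The lowest CTEPH library, s1, still stood above the highest Sham library, s10. The means were 10.16 ± 0.78 and 6.56 ± 0.44 (SD, n = 5 each), a difference of 3.60 ± 0.34 (SE; adjusted p = 9.89e-05, limma, Benjamini-Hochberg), larger than that of 99.8% of genes. In counts read back from the values, TOP2A ran from 270 to 1209 in the CTEPH libraries and from 26 to 65 in the Sham libraries. Divided by relative depth, these averaged 640.5 ± 324 and 47.6 ± 15.7 (SD, n = 5 each), a ratio of 13.4.

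TOP2B (ENSSSCG00000011213; chromosome 13, 12507738 to 12575042), the paralog present in resting cells too, showed no detectable difference between the groups. Its log2 values were 12.37, 12.46, 12.54, 12.92 and 12.78 in CTEPH libraries s1, s3, s4, s5 and s9, and 12.57, 12.23, 12.48, 12.72 and 12.84 in Sham libraries s2, s6, s7, s8 and s10. The groups overlapped throughout, with only CTEPH library s5 above every Sham library. The difference was 0.05 ± 0.15 (SE; adjusted p = 0.904, limma, Benjamini-Hochberg), with a 95% interval of -0.28 to 0.37. The sources used here do not say how reads shared by the 2 paralogs were counted.

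Among condensin genes the largest difference was in NCAPG (ENSSSCG00000008747; chromosome 8, 12759225 to 12807164), a HEAT-repeat subunit of condensin I, the form that reaches chromosomes after the nuclear envelope breaks down. Its log2 values were 8.21, 8.48, 9.20, 9.60 and 9.33 in CTEPH libraries s1, s3, s4, s5 and s9, and 6.18, 6.34, 6.09, 6.01 and 6.13 in Sham libraries s2, s6, s7, s8 and s10. The Sham pigs were tightly grouped and the CTEPH pigs more widely spread, with every CTEPH library above every Sham library. The difference was 2.81 ± 0.26 (SE; adjusted p = 9.89e-05, limma, Benjamini-Hochberg). Counts read back were 144 to 453 in CTEPH and 24 to 61 in Sham libraries, a depth-scaled ratio of 7.71.

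SMC4 (ENSSSCG00000011731; chromosome 13, 100078149 to 100120907), an ATPase of every condensin ring, was the other called condensin gene. It stood at 10.04, 10.11, 10.69, 11.32 and 10.93 in CTEPH libraries s1, s3, s4, s5 and s9, and at 9.59, 9.06, 9.59, 9.61 and 9.61 in Sham libraries s2, s6, s7, s8 and s10. Sham library s6 lay below the other 4 Sham libraries, which were nearly level, and every CTEPH library exceeded them all. The difference was 1.12 ± 0.24 (SE; adjusted p = 0.0181, limma, Benjamini-Hochberg).

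SMC2 (ENSSSCG00000005403; chromosome 1, 245409559 to 245459032), the ATPase that pairs with SMC4, had a similar mean difference with a wider spread. Its log2 values were 8.15, 8.17, 9.10, 9.68 and 9.29 in CTEPH libraries s1, s3, s4, s5 and s9, and 7.41, 7.75, 7.99, 8.16 and 8.11 in Sham libraries s2, s6, s7, s8 and s10. CTEPH library s1 fell just below Sham library s8, so the groups met at that edge. The difference of 0.995 ± 0.30 (SE) was not called (adjusted p = 0.0761, limma, Benjamini-Hochberg), and the depth-scaled counts had a ratio of 2.19.

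NCAPH (ENSSSCG00000008125; chromosome 3, 46852388 to 46893008) is the kleisin that closes the condensin I ring. It was at 8.14, 8.0, 8.87, 9.21 and 8.72 in CTEPH libraries s1, s3, s4, s5 and s9, and at 7.54, 7.48, 8.21, 7.41 and 7.64 in Sham libraries s2, s6, s7, s8 and s10. Sham library s7 alone reached into the CTEPH range, above s1 and s3. The difference was 0.93 ± 0.25 (SE; adjusted p = 0.0556, limma, Benjamini-Hochberg).

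NCAPG2 (ENSSSCG00000028169; chromosome 18, 653182 to 713825) is the condensin II counterpart of NCAPG, condensin II being the form that stays in the nucleus throughout the cycle. Its values were 8.85, 8.66, 9.25, 9.74 and 9.45 in CTEPH libraries s1, s3, s4, s5 and s9, and 8.13, 8.05, 8.35, 8.96 and 8.45 in Sham libraries s2, s6, s7, s8 and s10. Sham library s8 exceeded CTEPH libraries s1 and s3. The difference was 0.80 ± 0.24 (SE; adjusted p = 0.0731, limma, Benjamini-Hochberg).

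NCAPD2 (ENSSSCG00000000693; chromosome 5, 64136505 to 64167410), the second HEAT-repeat subunit of condensin I, had the smallest difference of the 6. It was at 10.60, 10.06, 10.50, 10.41 and 10.20 in CTEPH libraries s1, s3, s4, s5 and s9, and at 10.13, 9.98, 9.90, 9.90 and 10.08 in Sham libraries s2, s6, s7, s8 and s10. All CTEPH libraries except s3 were above every Sham library. The difference of 0.35 ± 0.14 (SE) was not called (adjusted p = 0.170, limma, Benjamini-Hochberg).

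Subunits that share 1 complex thus differed widely in fold change. Within each library NCAPG minus NCAPD2 was -3.95 to -3.64 in Sham and -2.39 to -0.82 in CTEPH, and NCAPG minus NCAPH was -2.13 to -1.14 in Sham and 0.07 to 0.61 in CTEPH. SMC2 minus SMC4, the ATPase pair, instead averaged -1.61 ± 0.34 over the Sham and -1.74 ± 0.16 over the CTEPH libraries (SD, n = 5 each), with overlapping ranges. These differences within condensin were chosen after the values were seen and were given no test. The 2 condensin II genes outside the 10, from a list of other condensin genes, were not called: NCAPD3 differed by 0.41 ± 0.19 (SE; adjusted p = 0.258) and NCAPH2 by -0.02 ± 0.19 (SE; adjusted p = 0.965, limma, Benjamini-Hochberg).

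Neither cohesin SMC gene was called. SMC1A (ENSSSCG00000012325; chromosome X, 46143738 to 46202187) had log2 values of 11.72, 11.63, 11.83, 12.16 and 11.73 in CTEPH libraries s1, s3, s4, s5 and s9, and 12.14, 11.63, 11.69, 11.46 and 11.95 in Sham libraries s2, s6, s7, s8 and s10. The highest library of each group, s5 and s2, stood at nearly the same level. The difference was 0.04 ± 0.15 (SE; adjusted p = 0.918, limma, Benjamini-Hochberg), with a 95% interval of -0.29 to 0.37.

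SMC3 (ENSSSCG00000010625; chromosome 14, 120969629 to 121008924), the partner ATPase that is acetylated when cohesion is set up, was at 11.67, 11.42, 11.56, 11.92 and 11.66 in CTEPH libraries s1, s3, s4, s5 and s9. In Sham libraries s2, s6, s7, s8 and s10 it was at 11.61, 11.41, 11.43, 11.72 and 11.58. Only CTEPH library s5 was above the Sham range. The difference was 0.10 ± 0.13 (SE; adjusted p = 0.721, limma, Benjamini-Hochberg), with a 95% interval of -0.18 to 0.37. The intervals of SMC1A, SMC3 and TOP2B all end at a log2 difference of 0.37. Those of NCAPG, SMC4 and NCAPH begin above that, at 2.24, 0.61 and 0.38. Those of SMC2, NCAPG2 and NCAPD2 begin below it, at 0.36, 0.30 and 0.05, and so overlap the cohesin intervals. Centring each library on a list of reference genes moved these 3 differences to just below 0 (-0.074 for SMC1A, -0.018 for SMC3 and -0.069 for TOP2B), without a call.

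**Figure D2:**
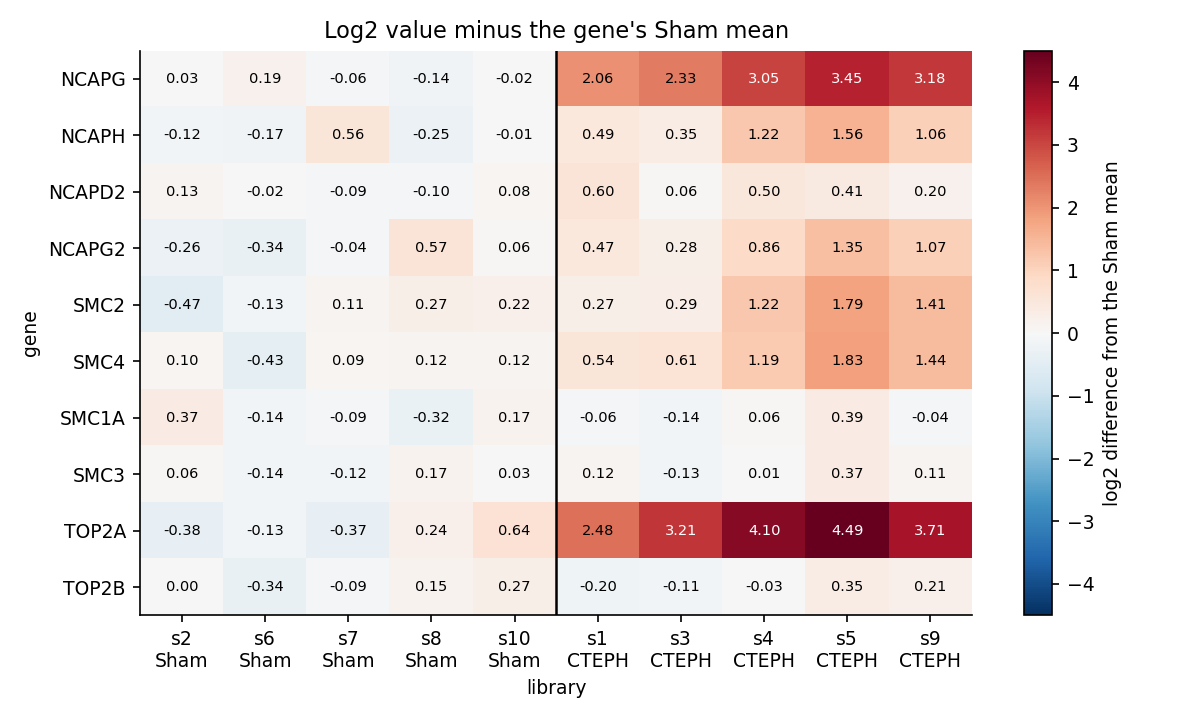
Log2 value of each gene (rows) in each library (columns, Sham left and CTEPH right of the line) minus the gene's Sham mean, written in each cell and coloured from blue (lower) to red (higher). TOP2A and NCAPG are 2.06 to 4.49 above their Sham mean in every CTEPH library, and SMC2 and SMC4 reach their highest values in s5, s9 and s4.

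Condensin against cohesin was then compared inside each library, where a shift common to both genes cancels. SMC4 minus SMC3 was -1.64, -1.31, -0.87, -0.60 and -0.73 in CTEPH libraries s1, s3, s4, s5 and s9, and -2.01, -2.35, -1.85, -2.10 and -1.96 in Sham libraries s2, s6, s7, s8 and s10. Every CTEPH library exceeded every Sham library, and the group means differed by 1.03. SMC4 minus SMC1A differed by 1.08, also without overlap, the CTEPH libraries averaging -1.20 ± 0.40 and the Sham libraries -2.28 ± 0.31 (SD, n = 5 each). Both gave p = 0.00794, the smallest that 5 libraries against 5 allow, and 0.0132 after Benjamini-Hochberg adjustment over the 5 pairs tested (two-sided exact permutation test).

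The SMC2 pairs had similar differences with more spread. SMC2 minus SMC3 averaged -2.77 ± 0.58 over the CTEPH and -3.67 ± 0.31 over the Sham libraries, and SMC2 minus SMC1A -2.93 ± 0.54 and -3.89 ± 0.52 (SD, n = 5 each). Their group differences of 0.90 and 0.95 gave p = 0.0238 and 0.0317, adjusted to 0.0298 and 0.0317 over the 5 pairs (two-sided exact permutation test). The groups overlapped in both pairs, with CTEPH library s1 inside the Sham range of both and s3 inside that of SMC2 minus SMC1A. The adjusted p of SMC2 minus SMC3 over the 5 pairs was no longer under 0.05 without Sham library s2, s6, s8 or s10. That of SMC2 minus SMC1A was no longer under 0.05 without s2, s6 or s10. For both pairs the adjusted p was up to 0.0635 (two-sided exact permutation test).

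The topoisomerase II pair had the largest difference of the 5. TOP2A minus TOP2B was -3.32, -2.69, -1.88, -1.87 and -2.51 in CTEPH libraries s1, s3, s4, s5 and s9, and -6.40, -5.80, -6.29, -5.92 and -5.64 in Sham libraries s2, s6, s7, s8 and s10. The groups were far apart, the nearest libraries being s1 and s10. The means differed by 3.55 (p = 0.00794, adjusted to 0.0132 over the 5 pairs, two-sided exact permutation test). TOP2A and SMC4 each separated the groups on their own, so the p-values of their pairs are not separate evidence. SMC2 on its own had an unadjusted p of 0.00510 and was not called over all genes (adjusted p = 0.0761, limma, Benjamini-Hochberg). The p-values of the SMC2 pairs were adjusted over only 5 pairs and are not separate evidence either.

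**Figure D3:**
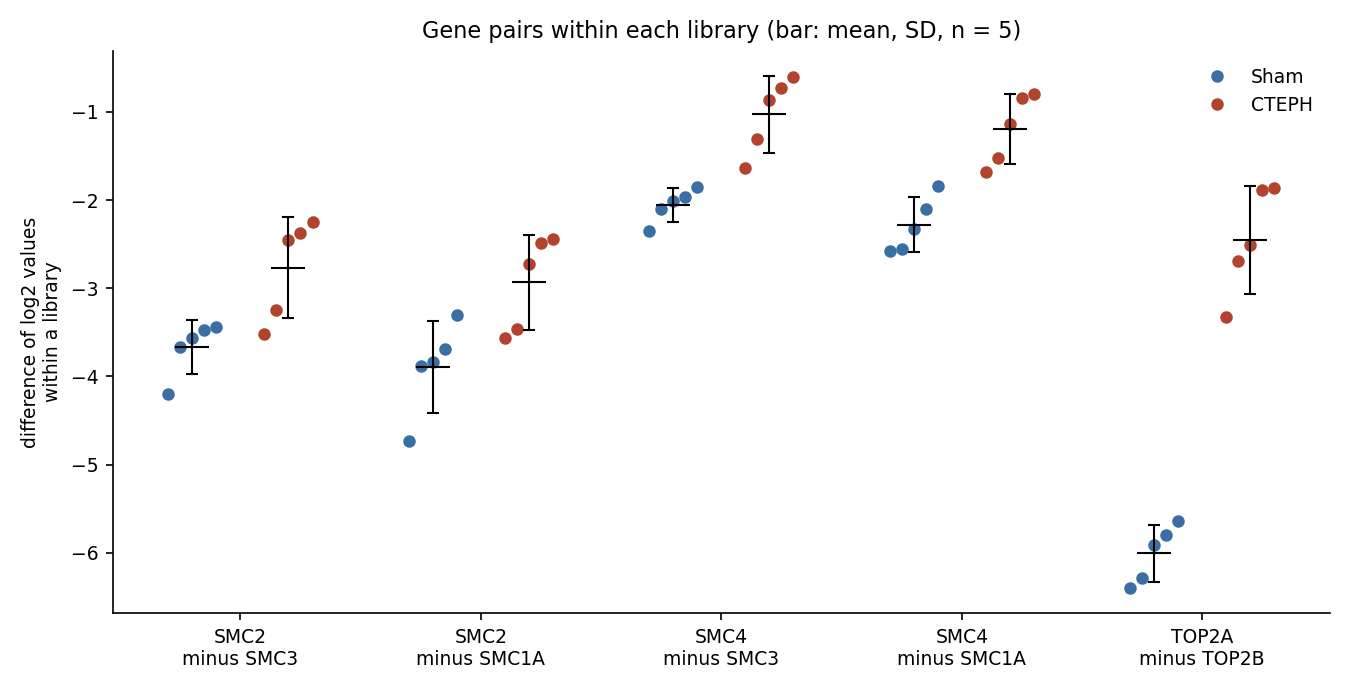
Difference of the log2 values of 2 genes within a library (vertical axis) for 5 gene pairs, with Sham in blue, CTEPH in red and the mean and SD in black. The groups are apart for both SMC4 pairs and for TOP2A minus TOP2B, and they meet for both SMC2 pairs.

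The CTEPH pigs were not alike in these genes. CTEPH library s5 had the highest value of 9 of the 10 genes, the exception being NCAPD2, which was highest in s1. Averaged over the 6 condensin genes, each centred on its mean over the 10 libraries, the level was 1.147 in s5, 0.81 in s9, 0.75 in s4, 0.15 in s1 and 0.07 in s3, against -0.73 to -0.49 in Sham. The same average over the 2 cohesin genes was 0.34 in s5 and -0.17 to 0.00 in the 4 other CTEPH libraries, against -0.17 to 0.18 in Sham. Condensin minus cohesin was therefore 0.15 to 0.81 in CTEPH and -0.86 to -0.36 in Sham, a difference in means of 1.10 that is given as a description. The 6 condensin differences behind it ran from 0.35 for NCAPD2 to 2.81 for NCAPG, so NCAPG weighs heavily in the average. NCAPD3 and NCAPH2 are not part of it. The library with the lowest relative depth, s9, was second highest in condensin level, just above the deepest, s4.

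Which condensin genes were called depended on single libraries. Without CTEPH library s1 or s3, NCAPH and SMC2 were called as well, so that 4 of the 6 condensin genes rose, beside 3.64% of all genes without s1 and 2.12% without s3. NCAPH was also called without Sham library s7 and NCAPG2 without Sham library s8, for 3 of the 6, beside 2.02% and 2.11% of all genes called higher. With library weights, the lowest of which were those of s1 and s9 (0.476 and 0.508), 5 of the 6 were called, all but NCAPD2. The share of all genes called higher also went up under these weights, from 2.83% to 4.62%. TOP2A, NCAPG and SMC4 were called in each of the 10 refits without 1 library (adjusted p of at most 5.48e-04, 5.44e-04 and 0.0480, limma, Benjamini-Hochberg), and SMC1A, SMC3, TOP2B and NCAPD2 in none.

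The other genes of these pathways came from 6 fixed lists with 41 measured genes of 48. RAD21L1, ESCO2, PTTG1, SMC5, NSMCE3, TOP1 and MKI67 were not found by symbol, so the results do not cover them. Of the 41 measured genes, 8 rose and 0 fell, beside 2.83% and 1.79% of all genes. The median log2 difference was 0.05 against -0.03 over all genes.

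No core cohesin partner was called. Of 6 measured genes 0 were called, beside 4.62% of all genes, and 0 had an unadjusted p under 0.05 (limma), beside 20.3%. So few genes would often give 0 calls at that share. The log2 differences ran from -0.32 to 0.51, with a median of -0.13. The ring-binding subunits STAG1 and STAG2 differed by -0.32 ± 0.16 and -0.27 ± 0.18 (SE), and the meiotic STAG3, at low counts of 16 to 39 in CTEPH and 9 to 20 in Sham libraries, by 0.51 ± 0.39 (adjusted p = 0.280, 0.443 and 0.509, limma, Benjamini-Hochberg).

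Among 12 measured genes of cohesin loading, release, acetylation and cleavage 3 rose and 0 fell, beside 2.83% and 1.79% of all genes. The median log2 difference was 0.05. The risers act on cohesin during division. CDCA5 encodes sororin, which protects cohesion after replication, and its log2 values were 7.13, 7.28, 8.35, 8.89 and 7.91 in CTEPH libraries s1, s3, s4, s5 and s9 and 4.498 to 5.11 in the Sham libraries. It rose by 3.23 ± 0.34 (SE; adjusted p = 1.44e-04, limma, Benjamini-Hochberg), with counts of 67 to 260 in CTEPH and 9 to 19 in Sham.

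SGO1, shugoshin, guards centromeric cohesin until anaphase. It was at 5.50 to 7.87 in CTEPH and 2.62 to 3.98 in Sham libraries, with counts of 21 to 129 and 3 to 13. It rose by 3.24 ± 0.46 (SE; adjusted p = 0.00163, limma, Benjamini-Hochberg).

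ESPL1 encodes separase, the protease that cuts the cohesin ring. Its log2 values were 6.69 to 8.21 in CTEPH and 3.003 to 5.21 in Sham libraries, with counts of 50 to 213 and 3 to 25. It rose by 3.08 ± 0.44 (SE; adjusted p = 0.00165, limma, Benjamini-Hochberg). For all 3 genes the groups did not overlap, as for 6.57% of all genes, and CTEPH library s5 was the highest.

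The remaining cohesin regulators were not called. SGO2, a second shugoshin, differed by 1.37 ± 0.42 (SE; adjusted p = 0.0839), the loader subunit MAU2 by -0.48 ± 0.19 (adjusted p = 0.177) and the loop anchor CTCF by -0.25 ± 0.13 (adjusted p = 0.296, limma, Benjamini-Hochberg). SGO2 was called without CTEPH library s1 and with library weights, and MAU2, as lower, without s1.

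The SMC5/6 complex is a relative of condensin and cohesin that works in DNA repair. In its list 0 of 6 measured genes were called, beside 4.62% of all genes. An unadjusted p under 0.05 (limma) was found for 1 of them, NSMCE4A, beside 20.3% of all genes. The NSMCE4A difference was 0.33 ± 0.13 (SE; adjusted p = 0.159, limma, Benjamini-Hochberg), with groups that did not overlap, as for 6.57% of all genes. The other 2 genes with the smallest p were SLF1 at 0.30 ± 0.19 and NSMCE1 at 0.17 ± 0.14 (adjusted p = 0.414 and 0.543, limma, Benjamini-Hochberg). The median was 0.17.

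Of 7 measured genes of other topoisomerases and their partners 1 rose and 0 fell, beside 2.83% and 1.79% of all genes. RMI2, a small subunit of the complex in which TOP3A and the BLM helicase resolve linked DNA, was at 6.65, 6.25, 7.63, 7.78 and 7.67 in CTEPH libraries s1, s3, s4, s5 and s9 and at 5.25 to 5.47 in Sham. It rose by 1.83 ± 0.32 (SE; adjusted p = 0.00620, limma, Benjamini-Hochberg). Its partners TOP3A and RMI1 were not called, with differences of -0.20 ± 0.18 and 0.26 ± 0.28 (SE; adjusted p = 0.569 and 0.654, limma, Benjamini-Hochberg). TOP3B, a paralog of TOP3A that works in another complex, differed by -0.33 ± 0.19 (SE; adjusted p = 0.343, limma, Benjamini-Hochberg).

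Of 8 measured chromosome partners of condensin and topoisomerase II, 4 rose and 0 fell, beside 2.83% and 1.79% of all genes. The median log2 difference was 1.18. CDK1, the mitotic kinase that phosphorylates condensin, rose by 3.38 ± 0.40 (SE; adjusted p = 3.62e-04), and the chromokinesin KIF4A, which binds condensin on chromosome arms, by 2.66 ± 0.38 (adjusted p = 0.00163). The mitotic kinase PLK1 rose by 1.45 ± 0.22 (SE; adjusted p = 0.00240, limma, Benjamini-Hochberg). Groups did not overlap for these 3 genes, as for 6.57% of all genes.

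AURKB, the kinase of the chromosomal passenger complex, rose by 0.90 ± 0.24 (SE; adjusted p = 0.0487, limma, Benjamini-Hochberg) with overlapping groups. It lost its call in 9 of the 10 refits without 1 library, all but that without CTEPH library s1, with an adjusted p of up to 0.115, and under 5 of the 8 other settings. Not called were CDCA2, which recruits a phosphatase to chromosomes (1.47 ± 0.42, SE; adjusted p = 0.0631), the anchoring protein AKAP8 (-0.74 ± 0.22, adjusted p = 0.0807) and MCPH1, an inhibitor of condensin II (0.27 ± 0.18, adjusted p = 0.437, limma, Benjamini-Hochberg). CDCA2 was called as higher without Sham library s8 (adjusted p = 0.0335) and with voom on the recovered counts (adjusted p = 0.0437), and AKAP8 as lower without CTEPH library s1 (adjusted p = 0.0353) and with library weights (adjusted p = 0.0499, all limma, Benjamini-Hochberg).

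**Figure D4:**
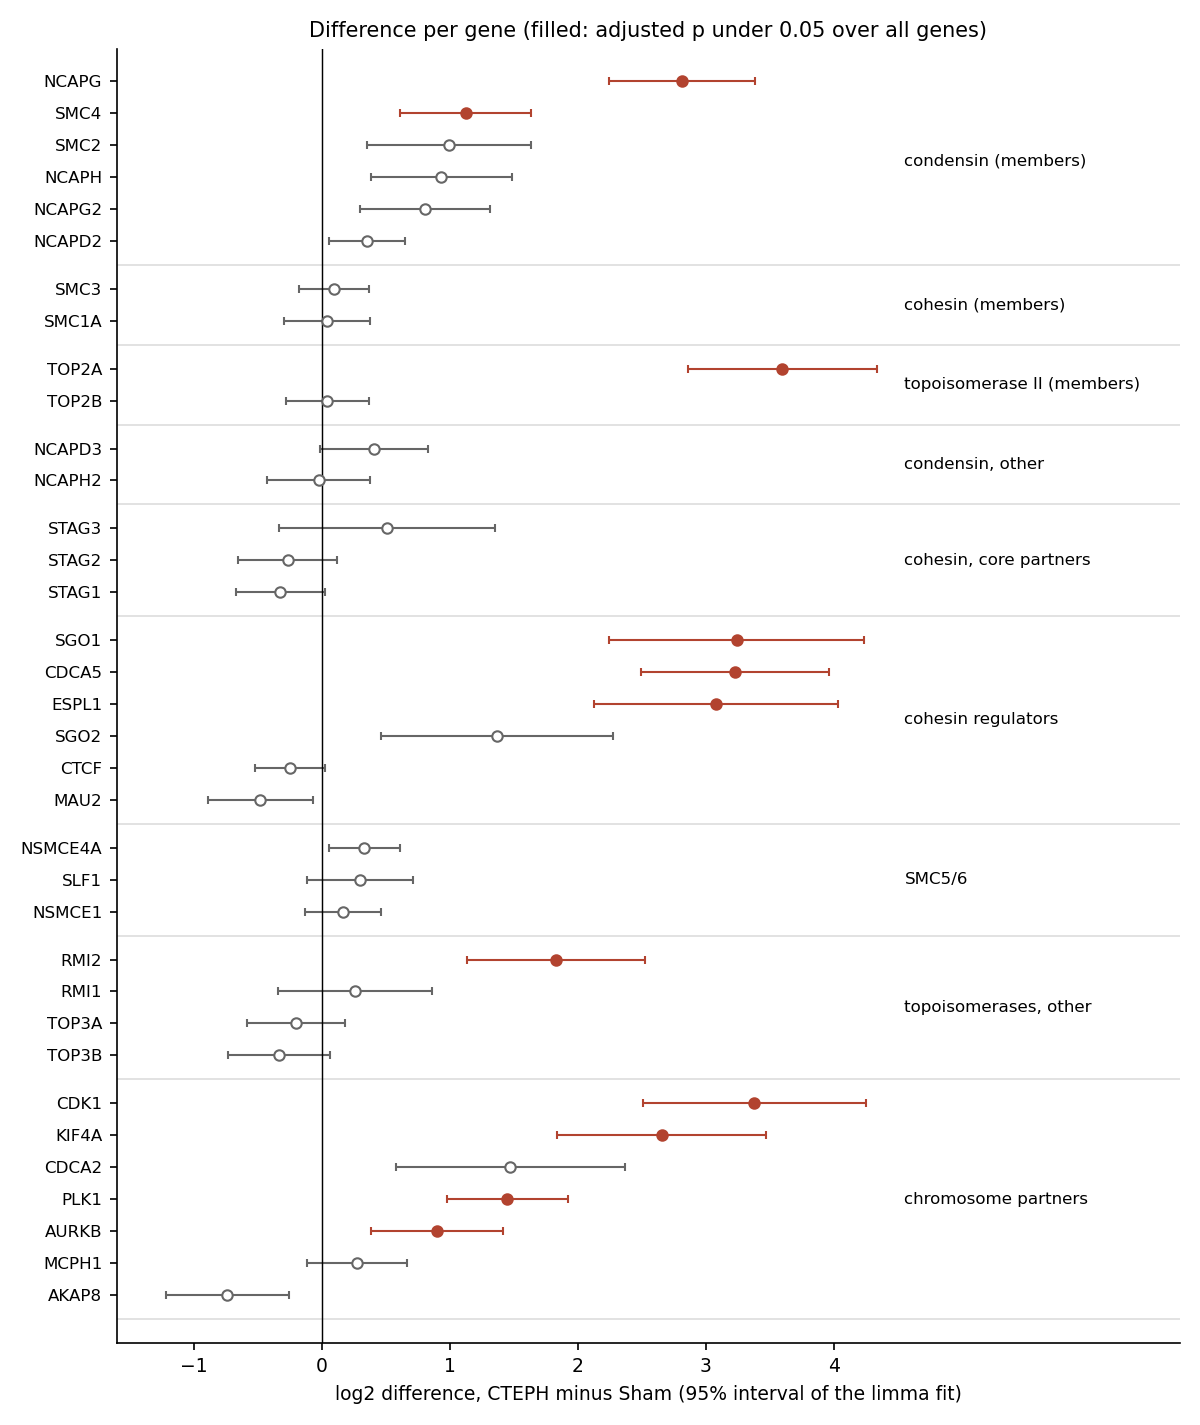
Log2 difference CTEPH minus Sham (horizontal axis) with the 95% interval of the limma fit for the 10 genes and for the named genes of the 6 pathway lists, filled where called. The called genes sit between 0.90 and 3.60, and all intervals of the cohesin core genes shown include 0.

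Likeness of pattern was measured as Pearson r over the 10 libraries after subtracting each group's mean, so that it describes how single pigs deviate, and it carries no p. Among 9 other genes of the set TOP2A was closest to SMC2 (r = 0.86), then to NCAPG (0.78), SMC4 (0.76), TOP2B (0.74) and NCAPG2 (0.72), and least like NCAPD2 (-0.04). Outside the set the 5 genes most like TOP2A were RACGAP1 (0.97), a cytokinesis regulator, CKAP2 (0.95), a mitotic spindle protein, CENPF (0.93), a kinetochore protein, SLC44A1 (0.93), a choline transporter, and CAP1 (0.93), an actin-binding protein. Without that subtraction r was 0.98 for CKAP2 and 0.99 for CENPF but 0.67 for CAP1 and -0.10 for SLC44A1. RACGAP1, CKAP2 and CENPF rose by 2.52 ± 0.29, 3.22 ± 0.50 and 3.41 ± 0.36, while SLC44A1 and CAP1 differed by -0.19 ± 0.17 and 0.18 ± 0.14 (SE) and were not called (adjusted p = 0.574 and 0.522, limma, Benjamini-Hochberg).

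SMC3 had other genes at the top of its list. The 5 most like it were picked from the same 10252 genes, so the same limit holds. They began with BDP1 (r = 0.98), a subunit of an RNA polymerase III factor, and PTAR1 (0.97). They ended with PHC3 (0.96), a Polycomb protein, PAFAH1B2 (0.96) and SREK1IP1 (0.96). Without the subtraction r ran from 0.80 for PHC3 to 0.96 for SREK1IP1. Their differences lay between -0.26 and 0.14 and 0 of them were called by limma. Within the set SMC3 was closest to NCAPG2 (0.78), TOP2B (0.72), SMC4 (0.69) and SMC2 (0.56). Its r was 0.44 both with its partner SMC1A and with TOP2A. All values come from the same 10 libraries and share their depth and normalization.

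Markers of cell types expected in heart tissue were read beside these genes, and their part in the results was not tested. All 8 cardiomyocyte and all 8 fibroblast markers were measured, with 1 (MYL2, higher) and 0 called. Their mean centred levels were -0.30 to 0.30 and -0.40 to 0.48 in CTEPH and -0.31 to 0.10 and -0.37 to 0.24 in Sham. All 7 measured endothelial markers had differences below 0, and TEK alone was called, as lower (level -0.50 to -0.01 in CTEPH, -0.17 to 0.59 in Sham). The 8 smooth muscle and pericyte markers had 4 differences above and 4 below 0. Of these CNN1 alone was called, as higher (level -0.52 to 0.49 in CTEPH and -0.25 to 0.11 in Sham). Of 8 macrophage and monocyte markers, 6 for T and NK cells, 4 for B and plasma cells and 3 for neutrophils and mast cells, 0 were called by limma. In that order 7, 4, 3 and 2 had differences above 0 and 1, 2, 1 and 1 below. An unadjusted p under 0.05 (limma) was found for 3, 0, 0 and 3 of them, beside 20.3% of all genes. The macrophage level was -0.23 to 0.69 in CTEPH and -0.55 to 0.25 in Sham, that of T and NK cells -0.07 to 0.28 and -0.40 to 0.80, that of B and plasma cells -0.43 to 0.59 and -0.49 to 0.35, and that of neutrophils and mast cells -0.43 to 0.73 and -0.65 to 0.11. All 3 Schwann cell and neural markers had differences below 0, and SOX10 alone was called, as lower (level -0.97 to -0.08 in CTEPH, -0.30 to 1.44 in Sham). Of the 2 erythroid, 3 adipocyte, 4 lymphatic endothelial and 1 mesothelial markers measured, 0 were called by limma. Their levels were -1.22 to 1.78, -0.77 to 0.34, -0.85 to 0.52 and -0.55 to 1.151 in CTEPH, and -1.64 to 0.49, -0.70 to 1.02, -0.32 to 0.43 and -0.55 to 0.43 in Sham. The called markers differed by 0.99 ± 0.21 (MYL2), -0.78 ± 0.17 (TEK), 1.98 ± 0.47 (CNN1) and -1.09 ± 0.26 (SOX10), on the log2 scale with SE. No measured marker was at a count of 0 in any library, the lowest being ADIPOQ and CD79A with 2 and 3 counts, and the groups overlapped in the level of each of these lists.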

How the data were processed

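Tools listed in the submitters' processing notes include featureCounts, limma 3.50.0 and edgeR 3.36.0, with the build Sscrofa11.1, while the sources used here name no aligner, annotation or strand setting. The labels name polyA RNA as the molecule and a stranded total RNA kit. The deposited table holds 1 log2 value per gene and library, and the values look quantile-normalized (library medians of 9.305 to 9.308). Counts were read back by walking tied values in rank order, with each value matched within 6e-10, or 6e-09 from a value of 10 upwards (largest error 5.0e-09), a step tested on simulated data.

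Symbols matched 12378 genes. Coordinates are those of RefSeq Sscrofa11.1, matched by symbol and counted from 1. No sequence is printed, since none was used here.

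CTEPH and Sham were fitted with limma 3.58.1 under R 4.3.3 (intensity trend, no covariate, no filter, two-sided, Benjamini-Hochberg over all genes). Pairs of genes were compared with an exact permutation test in Python 3.11.15. The limma fit was tested on simulated data. With 1 library per pig, each test treats the pig as the unit. Variation between pigs and technical variation cannot be told apart.

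The members and lists were chosen with earlier results of these data known. Named genes, by a fixed rule, are the 10 members, the called genes of each pathway list with up to 3 uncalled genes of smallest p, the 5 genes most like TOP2A and SMC3, and called markers; differences within condensin were chosen after their values were seen. Alternatives left out each library, dropped the trend, used robust variances or library weights, dropped the lowest 25% of genes, added 7 before the logarithm, centred on 10 reference genes, added depth as covariate, or used voom on counts of 11124 genes.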

Additional observations from a re-analysis of the deposited data

Results flagged for a closer look

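Among the 10 genes and the named pathway genes, 70 groups of 5 libraries were examined for a library far from the 4 others, and chance marks about 1 group in 20. In SMC4, Sham library s6 (9.06) lay far below the nearest Sham library (9.59). Without it the SMC4 difference is inside the range given below. In CDCA5, Sham library s10 (5.11) lay above the nearest Sham library (4.65), still well under the lowest CTEPH value. In CDCA2, CTEPH library s5 (6.95) stood above the nearest CTEPH library (6.18).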

How the results depend on the processing

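No paired analysis was possible because each library number occurs once. Leaving out 1 library gave 401 to 961 called genes, 270 to 570 higher and 117 to 392 lower, against 723, 443 and 280. Library weights gave 1269 (722 higher, 547 lower), voom on recovered counts 472 (159 lower), dropping the lowest 25% of genes 273 higher, and reference gene centring 538 lower. That centring moved the median of all genes from -0.03 to -0.15 and the share of higher calls from 61.3% to 39.3%. The causes were not tested.

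With library weights NCAPH (0.88), NCAPG2 (0.78) and SMC2 (0.95) passed the threshold. Reference gene centring turned the sign of SMC1A (-0.074), SMC3 (-0.018) and TOP2B (-0.069). Without 1 library the differences ran from 2.65 to 3.0 for NCAPG, 0.78 to 1.08 for NCAPH, 0.67 to 0.95 for NCAPG2, 0.80 to 1.18 for SMC2, 0.95 to 1.27 for SMC4 and 3.37 to 3.88 for TOP2A. They ran from -0.046 to 0.13 for SMC1A, -0.039 to 0.11 for TOP2B and -0.11 to 0.065 for NCAPH2, each of which changed sign in some refits. The pair differences ran from 0.77 to 1.09 for SMC2 minus SMC3 and 0.74 to 1.11 for SMC2 minus SMC1A. Voom could not be fitted for SMC4, SMC1A, SMC3 and TOP2B, whose counts were not recovered in all libraries.

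Quantile normalization removes a change shared by most genes, and counts of a few reads limit SGO1 and ESPL1 in Sham libraries.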
